A study of Mus musculus with 44 samples.

Results

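The collagen gene family was followed in the liver and skeletal muscle of mice lacking the monocarboxylate transporter Slc16a13. Members were taken by name, as every gene whose symbol reads Col, a type number, the letter a and a chain number, and 44 of the 38202 genes in the deposited tables met this rule. By class, 11 encoded chains of fibrillar collagens, 9 chains of fibril-associated collagens, 6 chains of the type IV network of basement membranes and 6 chains of the type VI microfibrils. The remaining members were 4 transmembrane collagens, 3 short-chain network collagens, 2 multiplexins and 3 others, among them the anchoring fibril chain Col7a1.

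The samples came from male C57BL/6N mice, either SLC16A13 KO animals carrying a constitutive, whole-body deletion made with CRISPR/Cas9 or their WT littermates. All mice ate a high-fat diet for 15 weeks and were killed at 20 weeks of age after an overnight fast, so that every group shared the diet and there was no chow group. From each mouse 1 liver and 1 skeletal muscle library was sequenced, giving 11 WT livers, 11 KO livers, 11 WT muscles and 11 muscles labelled KO, and the muscle taken was not named. Libraries held between 20150712 and 35218243 counted reads.

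Slc16a13 reads followed the labels in liver, with 99 to 302 reads (median 149) in WT and 0 to 8 (median 3) in KO. In muscle they did not, with 4 to 22 reads (median 12) in WT against 11 to 40 (median 18) in the libraries labelled KO. The reads are counted over the whole gene, whereas the deletion covered only its promoter and first exons. The tissue labels matched their markers, since 5 hepatocyte genes summed to at least 46430 RPKM (reads per kilobase of gene, scaled to the reads of the library) in every liver and at most 32.6 in every muscle, and 5 muscle fibre genes to at least 69835 RPKM in every muscle and at most 30.1 in every liver. Of the 11 KO livers, 4 had comparatively few reads on long genes: a line fitted to log2 expression against the log2 of gene length sloped by -0.54 to -0.08 in mice 532, 602, 583 and 611, and by 0.04 to 0.10 in WT livers. Most collagen transcripts are long, so the main liver results between genotypes are also given without these 4 libraries or with the trend on gene length removed.

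Collagens are secreted proteins in which 3 chains wind into a triple helix, a structure that requires glycine at the start of each unit of 3 residues. Fibrillar collagens (types I, III and V) form the load-bearing fibres of connective tissue, type IV collagen forms the sheet of basement membranes, and type VI collagen links cells to the surrounding matrix. In liver, hepatic stellate cells are the main source of fibrillar collagen, and its build-up is fibrosis, while hepatocytes make collagen XVIII, whose carboxy-terminal fragment is endostatin. In muscle, fibroblast-like cells of the endomysium make most of the fibrillar and type VI collagen around each fibre.

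The repeat is visible in the coding sequence as a GGN codon, which encodes glycine, at the start of each unit of 3 codons. In the longest complete coding sequence of each gene in GENCODE M21 (build GRCm38), all 44 members held an unbroken run of at least 20 such codons, with runs between 23 in Col26a1 and 344 in Col3a1 (median 58.5). Among 21460 other protein-coding genes, 20 reached a run of 20. Fibrillar members had the long uninterrupted runs, 338 in Col1a1 and 339 in Col1a2, whereas the basement membrane chain Col4a1 had 40, the type VI chain Col6a1 87 and the multiplexin Col18a1 30. Most exons of the type I chains followed the same unit. Of the 51 exons of Col1a1 43 had a length divisible by 9, and of the 52 of Col1a2 45, and 21 and 24 of them, respectively, were exactly 54 bases. Other classes did so less. In Col4a1 20 of 52 exons and in Col18a1 18 of 41 had a length divisible by 9, and 2 and 3, respectively, were exactly 54 bases. A 54-base exon is shown for each of 6 members on which the results below turn, with the glycine codons in capitals. Only exons with a GGN codon at the start of every unit of 3 codons were eligible to be shown.
Col1a1 (chr11:94944355-94944408, plus strand, exon 26 of 51): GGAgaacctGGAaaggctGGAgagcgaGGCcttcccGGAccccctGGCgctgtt
Col1a2 (chr6:4524117-4524170, plus strand, exon 27 of 52): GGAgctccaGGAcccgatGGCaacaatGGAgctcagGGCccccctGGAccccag
Col3a1 (chr1:45334761-45334814, plus strand, exon 26 of 51): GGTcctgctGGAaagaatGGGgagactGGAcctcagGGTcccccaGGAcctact
Col4a1 (chr8:11238998-11239051, minus strand, exon 17 of 52): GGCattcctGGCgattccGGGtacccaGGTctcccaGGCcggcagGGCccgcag
Col18a1 (chr10:77067379-77067432, minus strand, exon 27 of 41): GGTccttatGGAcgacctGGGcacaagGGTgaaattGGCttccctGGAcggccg
Col22a1 (chr15:71896734-71896787, minus strand, exon 35 of 64): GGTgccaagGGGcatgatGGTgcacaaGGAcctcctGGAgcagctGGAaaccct
Each of the 6 exons held 6 glycine codons. This count follows from the length of 54 bases and from how the exons were chosen, so it does not compare the classes. The codons between the glycine codons differed from gene to gene. These exons code for the helix and contain no untranslated sequence.

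Promoter sequence from RefSeq (build GRCm38.p6) matched 35 of the 44 members, in 38 windows. The 250 bases before the annotated start were searched on both strands for TATAAA (the TATA box), CCAAT (the CCAAT box) and GGGCGG (the GC box). A CCAAT box on the opposite strand, read as ATTGG, can share bases with a GC box. A GC box stood in 22 of the 38 collagen windows (57.9%) and in 32.7% of all 32851 windows, a CCAAT box in 34.2% against 33.9%, and a TATA box in 13.2% against 12.4%. The median GC content was 59.0% over the collagen windows and 52.4% over all windows. The windows of Col3a1, the most abundant member in muscle, and of Col18a1 and Col27a1, which were higher in liver, are shown with matches in capitals, without any part that an annotated exon overlaps.
Col3a1 (chr1:45311288-45311537, plus strand): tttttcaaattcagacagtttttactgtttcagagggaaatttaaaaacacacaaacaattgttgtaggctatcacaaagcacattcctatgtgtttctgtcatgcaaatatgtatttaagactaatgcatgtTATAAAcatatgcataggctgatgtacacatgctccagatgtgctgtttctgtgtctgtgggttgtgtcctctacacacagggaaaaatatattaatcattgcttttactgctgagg
Col18a1 (chr10:77166549-77166780, minus strand): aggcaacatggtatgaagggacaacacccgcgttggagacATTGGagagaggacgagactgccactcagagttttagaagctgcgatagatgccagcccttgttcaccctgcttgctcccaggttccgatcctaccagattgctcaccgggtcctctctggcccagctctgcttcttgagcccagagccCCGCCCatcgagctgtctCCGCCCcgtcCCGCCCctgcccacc
Col27a1 (chr4:63215162-63215411, plus strand): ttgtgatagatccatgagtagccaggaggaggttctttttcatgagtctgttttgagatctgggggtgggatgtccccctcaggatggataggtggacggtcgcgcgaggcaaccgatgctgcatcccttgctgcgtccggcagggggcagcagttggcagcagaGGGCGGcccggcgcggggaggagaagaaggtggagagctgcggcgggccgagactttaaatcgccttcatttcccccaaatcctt
The Col3a1 window held 1 TATA box and no GC box and had a GC content of 35.2%. The Col18a1 window held 3 GC boxes and 1 CCAAT box, and that of Col27a1 held 1 GC box. The window of Col13a1, also higher in liver, held 1 TATA box and no GC box, and that of Col1a2, abundant in muscle, held 2 GC boxes. Col18a1 has a second annotated start within the gene, whose upstream window overlapped an exon and is not shown, and the counts do not tell transcripts of the 2 starts apart.

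Liver and muscle of WT mice expressed different sets of collagens. RPKM values were used to compare genes within a tissue. They were not reads divided by a fixed length, since the ratio of reads to RPKM differed over 1.5-fold between libraries for 22 of 44 members, up to 3.89-fold for Col16a1. The main comparisons of collagen genes between libraries therefore rest on counts, and the ratios of chains are given from both. Cell type markers were summed in RPKM, also where libraries are compared, and the lengths behind those sums were not examined. WT liver was dominated by Col18a1, which took 68.2 to 86.7% of the summed collagen RPKM (median 79.6%). WT muscle had no such leader, and Col18a1 took 0.978 to 1.39% there.

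In the 11 WT livers Col18a1 lay between 197 and 269 RPKM (median 229). The next members were far lower, with medians of 12.9 RPKM for Col14a1, a fibril-associated collagen, and 6.73 RPKM for the type V chain Col5a3. Col4a1 (6.65 RPKM) and Col3a1 (4.995 RPKM) completed the 5 highest. Every Col18a1 value lay above every value of the others. Col14a1, at 9.12 to 19.99 RPKM, also lay above Col5a3 in every mouse but overlapped with Col4a1 and Col3a1, and Col5a3, Col4a1 and Col3a1 overlapped with each other. The type I chains were low in liver, with medians of 2.52 RPKM for Col1a2 and 1.57 RPKM for Col1a1.

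In the 11 WT muscles the most abundant member was Col3a1, between 17.03 and 46.2 RPKM (median 33.1). It was followed by Col4a1 (median 26.9 RPKM), Col1a2 (23.6 RPKM), Col4a2 (21.4 RPKM) and Col6a1 (16.5 RPKM), and these 5 overlapped with their neighbours. Fibrillar chains made up a median of 42.1% of the summed collagen RPKM, basement membrane chains 23.04% and type VI chains 18.1%. In liver the same classes made up 7.75%, 4.12% and 1.63%. In KO liver Col18a1 took a median of 80.6% of collagen RPKM and in muscle labelled KO the fibrillar chains 42.03%.

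**Figure D1:**
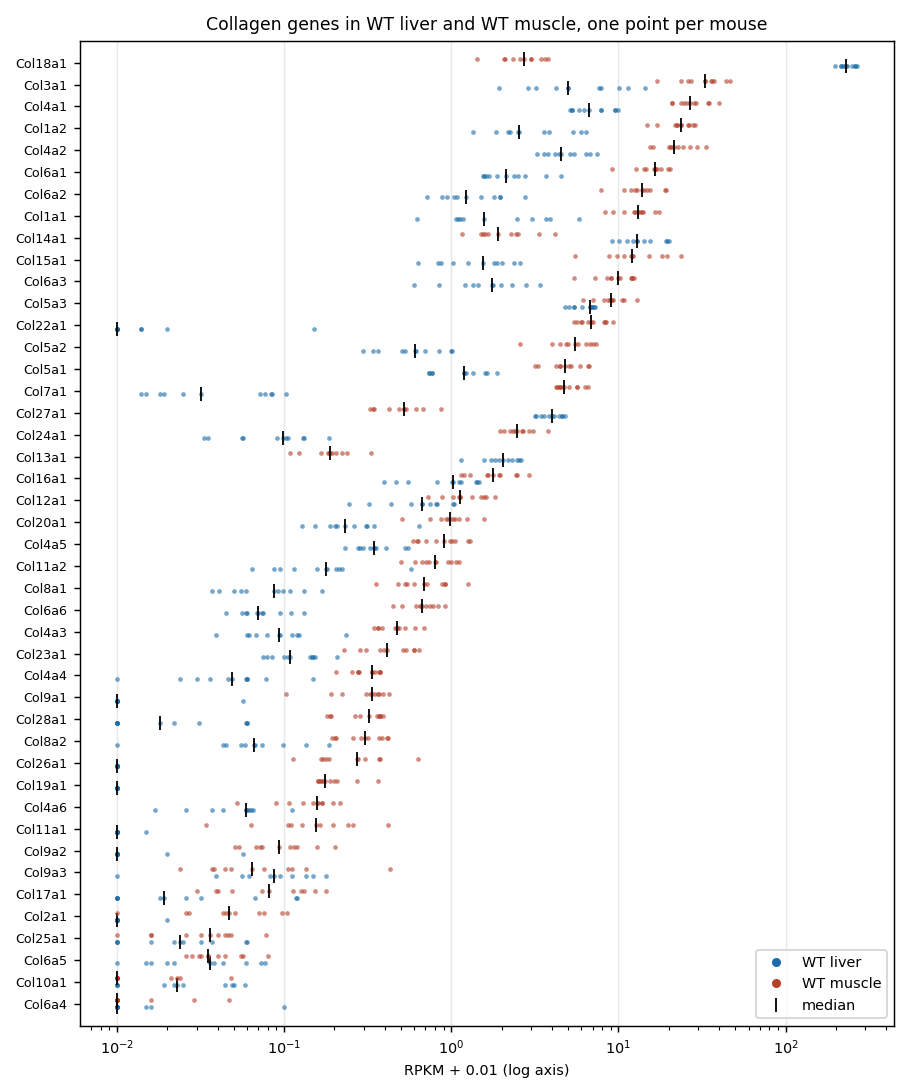
Expression of each of the 44 collagen genes in WT liver (blue) and WT muscle (red), with 1 point per mouse (11 mice per tissue) and a black bar at the median; the horizontal axis gives RPKM plus 0.01 on a log axis. Col18a1 in liver, at a median of 229 RPKM, stands far to the right of every other member.

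Tissues were compared by counts in edgeR, with Benjamini-Hochberg adjustment over all genes. Of the 44 members, 32 passed the filter on low counts and all 32 differed between WT liver and WT muscle, 4 higher in liver (45.5% of all genes tested were called in that direction) and 28 higher in muscle (45.5% of all genes). Of these, 8 passed only through muscle, where they are high, and so had to differ. Over the 24 members that passed in each tissue alone, 4 were higher in liver and 20 in muscle, beside 45.2% and 44.3% of the 11602 such genes. The median log2 fold change of the 32 members, which include the 8 that had to differ, was -2.43, against 0.00 over all genes tested. It is given as a description only. In bulk tissue, more cells of a type and more RNA per cell cannot be told apart.

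The members higher in liver were Col18a1, Col13a1, Col27a1 and Col14a1. Col18a1 lay between 940 and 1328 CPM (counts scaled to library size, with TMM factors) in WT liver (median 1122) and between 7.31 and 18.4 CPM in WT muscle (median 12.5). The ranges were far apart, and Col18a1 was 85.8-fold higher in liver (log2 fold change 6.42, SE 0.14, adjusted p = 1e-23, edgeR). Its relative Col15a1, the other multiplexin, differed the opposite way, with 1.39 to 7.27 CPM (median 3.08) in liver and 18.7 to 52.1 CPM (median 31.5) in muscle, a log2 fold change of -3.28 (SE 0.22).

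Col13a1, a transmembrane collagen found at the neuromuscular junction, was higher in liver at 3.05 to 7.27 CPM (median 5.29), against 0.241 to 0.606 CPM (median 0.452) in muscle. Its log2 fold change was 3.55 (SE 0.16, adjusted p = 4.5e-17, edgeR). Col27a1, a fibrillar collagen known from cartilage, measured 16.2 to 26.7 CPM in liver (median 22.6) and 1.84 to 3.53 CPM in muscle (median 2.44), a log2 fold change of 3.08 (SE 0.12). Col14a1 measured 37.8 to 87.4 CPM in liver (median 56.8) and 4.38 to 14.9 CPM in muscle (median 7.19), a log2 fold change of 2.93 (SE 0.19). For all 3 genes every liver exceeded every muscle. Such separation was common, as WT liver and WT muscle did not overlap for 9867 of all 13907 genes tested.

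The widest differences towards muscle were in members close to absent from liver. Col22a1, which is deposited at the junction of muscle and tendon, had 995 to 1746 reads in each WT muscle and 0 to 2 reads in each WT liver. Summed over mice this was 14040 against 6 reads, a depth-corrected ratio of 2220 (95% interval 1020 to 6051, counting error only). Col19a1 had 18 to 45 reads in each WT muscle and none in any WT liver, which was at least 86.7-fold higher in muscle when 3 reads over the whole liver group are taken as the floor. Col9a1, which did not pass the filter in WT mice, had 12 to 36 reads in muscle and at most 1 in liver.

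The anchoring fibril chain Col7a1 measured 25.7 to 42.5 CPM in WT muscle (median 30.9) and 0.0386 to 0.352 CPM in WT liver (median 0.148), a log2 fold change of -7.55 (SE 0.17). Col24a1, a fibrillar collagen, gave -5.79 (SE 0.18), Col28a1 -3.97 (SE 0.37) and the type VI chain Col6a6 -3.36 (SE 0.15). The groups did not overlap for any of these 4, as for 9867 of all 13907 genes tested. These 4, Col22a1 and Col19a1 are among the 8 members that passed the filter only through muscle. Their values are therefore given as a description.

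Among the abundant chains, muscle exceeded liver less widely. Col1a1 measured 50.5 to 98.0 CPM in WT muscle (median 73.8) and 3.41 to 28.9 CPM in WT liver (median 7.02), a log2 fold change of -2.66 (SE 0.29), and Col1a2 gave -2.73 (SE 0.22). Col3a1 gave -2.27 (SE 0.26), Col5a1 -2.03 (SE 0.14) and Col5a2 -3.16 (SE 0.19). The basement membrane chains Col4a1 and Col4a2 gave -1.95 (SE 0.12) and -2.16 (SE 0.12), and the type VI chains Col6a1, Col6a2 and Col6a3 gave -2.71, -3.23 and -2.42 (SE 0.16, 0.18 and 0.17). Not every fibrillar chain was far apart: Col5a3 was 30.2 to 44.1 CPM in liver and 38.03 to 74.5 CPM in muscle, overlapping, with a log2 fold change of -0.50 (SE 0.09).

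In KO mice 35 members passed the filter and all 35 differed between liver and the muscle labelled KO, 4 higher in liver (43.9% of all genes called in that direction) and 31 higher in muscle (42.8%). Of these, 11 passed only through muscle and so had to differ. The 4 were again Col18a1 (log2 fold change 6.27, SE 0.23), Col13a1 (3.64, SE 0.19), Col27a1 (2.94, SE 0.12) and Col14a1 (2.49, SE 0.24). Over the 24 members that passed in each tissue alone, 4 were higher in liver (43.5% of all such genes) and 20 in muscle (41%). On the muscle side the largest fitted differences were in Col22a1, Col7a1, Col9a1, Col19a1, Col24a1 and Col11a1, all of them among the 11. Col7a1 gave -6.95 (SE 0.20) and Col24a1 -5.73 (SE 0.23). For Col9a1 the summed reads were 314 in muscle and 1 in liver, for Col19a1 256 and 1, and for Col11a1 253 and 4, so that their folds are known only loosely. KO and WT mice are separate animals. The median over the 35 tested members, which include the 11 that had to differ, was -2.90, against 0.02 over all genes tested.

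**Figure D2:**
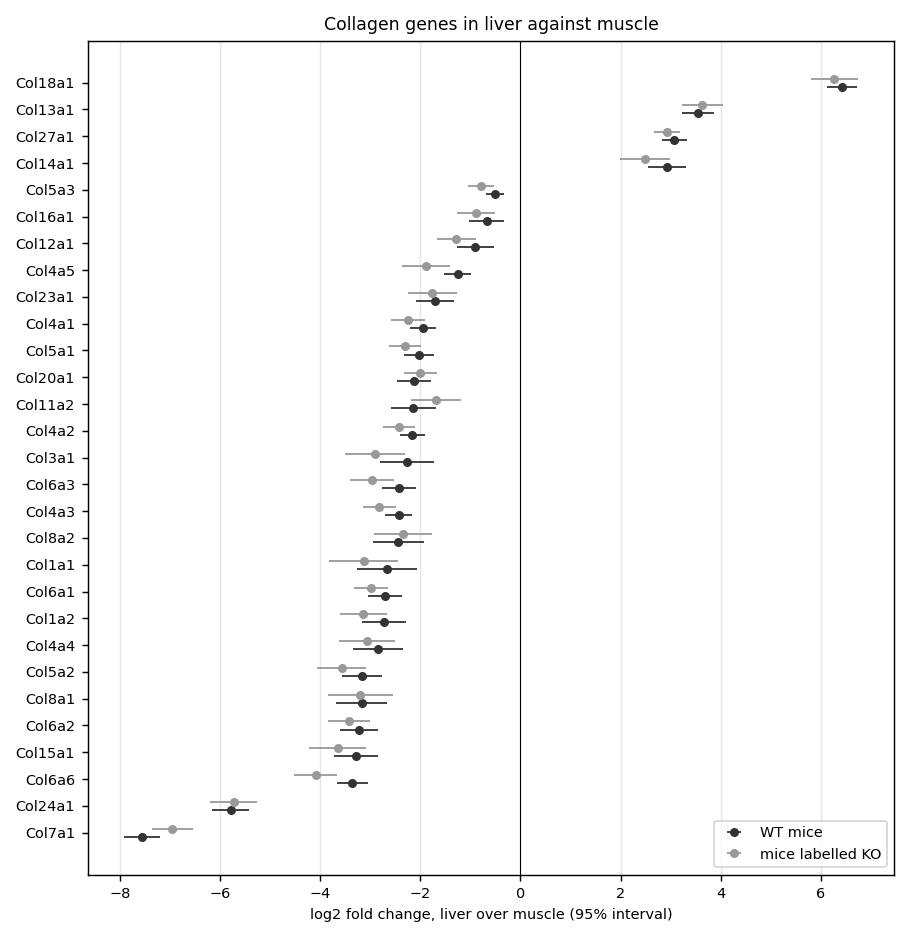
Log2 fold change of liver over muscle, with 95% intervals, in WT mice (black) and mice labelled KO (grey) for the 29 collagen genes that passed the filter in WT mice and had more than 3 reads in some liver of each genotype. Col18a1, Col13a1, Col27a1 and Col14a1 lie to the right of 0 and the other 25 to the left, in both kinds of mice. The 25 include Col7a1, Col24a1, Col6a6, Col4a4 and Col8a2, which passed the filter only through muscle and so had to differ.

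Genes that make, process and hold collagen were compared from lists of 65 genes, of which 57 were tested in WT mice, 15 higher in liver and 38 higher in muscle, beside 45.5% of all genes in each direction. Of the 57, Lox, Itga11, Adamts3, Timp4 and Comp did not pass the filter in liver alone and so had to differ. The enzymes that hydroxylate and glycosylate collagen chains were divided, with 6 of 14 higher in liver and 6 higher in muscle. Those higher in liver included P4hb, a subunit of prolyl 4-hydroxylase that also serves as a general folding enzyme (log2 fold change 3.09, SE 0.05), and Ppib, a cyclophilin of the endoplasmic reticulum (3.02, SE 0.05). Serpinh1, the collagen chaperone HSP47, was higher in muscle (-1.98, SE 0.10), whereas Sec24d, a coat protein of secretory vesicles, was higher in liver (3.98, SE 0.10).

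Of the 5 lysyl oxidases, which crosslink collagen, 4 were higher in muscle, among them Lox with a median of 19.6 CPM in muscle and 0.309 CPM in liver (-5.50, SE 0.22). Among 8 tested proteases and inhibitors of collagen breakdown, 7 were higher in muscle, including Mmp2, a gelatinase (-3.66, SE 0.14), and Timp3, an inhibitor of metalloproteases (-1.97, SE 0.05). Bmp1, which removes the carboxy-terminal propeptide of fibrillar collagens, was higher in liver (3.02, SE 0.09). Collagen receptors split, with 2 of 6 higher in liver and 3 in muscle: the integrin chain Itga1 was higher in liver (1.36, SE 0.08), and Itga11 (-5.21, SE 0.21) and the discoidin receptor Ddr1 (-3.28, SE 0.11) in muscle. Apart from Lox and Itga11, which had to differ, the genes named from these lists had an adjusted p of at most 1.1e-14 in edgeR.

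Loss of Slc16a13 in liver called no collagen gene. Of the 44 members 24 passed the filter in liver and 0 had an adjusted p under 0.05 in edgeR (0.0231% of all 13005 genes were called), nor did DESeq2 or limma-voom call any. At an unadjusted p under 0.05 there were 2 members, both lower in KO (12.9% of all genes were past that threshold). Fitted changes were below 0 for 20 of 24 members, with a median of -0.19 against -0.01 over all genes. With the gene length trend removed this median was 0.01, and without the 4 KO livers with few reads on long genes it was -0.17.

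The smallest p in liver were those of Col5a3 and Col6a3. Col5a3 measured 29.6 to 43.04 CPM in WT (median 38.7) and 23.97 to 38.95 CPM in KO (median 33.2), which overlapped, with a log2 fold change of -0.19 (SE 0.08, unadjusted p = 0.031, adjusted p = 0.382, edgeR). Col6a3 measured 5.41 to 12.8 CPM in WT (median 7.83) and 2.35 to 9.67 CPM in KO (median 5.98), with a log2 fold change of -0.45 (SE 0.21, unadjusted p = 0.038, adjusted p = 0.382, edgeR). The lowest Col6a3 value came from KO mouse 602, one of the livers with few reads on long genes, and without those 4 livers the estimate was -0.27. The next 3 members were Col4a5 (-0.44, SE 0.24), Col27a1 (-0.21, SE 0.12) and Col5a1 (-0.27, SE 0.16).

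For the fibrillar chains associated with fibrosis the intervals were wide. Col1a1 ranged from 3.47 to 27.7 CPM in WT (median 6.88) and from 3.02 to 23.9 CPM in KO (median 4.67), and its log2 fold change was -0.48 (95% interval -1.32 to 0.35). The highest KO value was that of mouse 532, one of the 4 livers with few reads on long genes, and the other 10 KO livers reached at most 13.1 CPM. Macrophage markers summed to 252 RPKM in mouse 532, against at most 120 in WT liver. They also lay above the WT livers in KO mice 611 (160 RPKM), 570 (140), 583 (132), 602 (132), 587 (123) and 598 (122). In mouse 532 markers of hepatic stellate cells summed to 208 RPKM, against at most 174 in WT liver, and also exceeded this in KO mouse 602 (176). Markers of activated myofibroblasts summed to 58.1 RPKM in mouse 532, against at most 49.9 in WT liver. Those of fibro-adipogenic cells summed to 169 RPKM, against at most 142. Its endothelial markers were lower, at 65.7 RPKM against at least 68.5. The part of these cells in the Col1a1 values was not tested. Without the 4 livers Col1a1 gave -0.64, without mouse 532 alone -0.81, without WT mouse 516 alone -0.26 and with gene length removed -0.12, and no estimate passed the threshold. Col3a1 gave -0.44 (-1.11 to 0.24) and Col1a2 -0.31 (-0.87 to 0.26), so no change lay within each interval. With gene length removed these were -0.15 and -0.0349, and without the 4 livers -0.45 and -0.34. Col18a1 was measured more tightly, with 900 to 1299 CPM in WT and 768 to 1336 CPM in KO, and a log2 fold change of 0.02 (-0.16 to 0.19). It was 0.0755 without the 4 livers and 0.21 with gene length removed, which is outside that interval, with an adjusted p of 0.532 in edgeR. The other members of the fixed list ran from -0.30 (SE 0.30) for Col15a1 to -0.15 (SE 0.21) for Col6a2.

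In the muscle libraries labelled KO, 35 members were tested and 0 were called in edgeR (0.00754% of all 13266 genes), DESeq2 or limma-voom. At an unadjusted p under 0.05 there were 3 members, 2 higher and 1 lower (8.64% of all genes). The median log2 fold change was 0.09, against 0.01 over all genes, and 25 of 35 were above 0. This comparison rests on labels that the Slc16a13 reads did not bear out. Those reads were few in muscle, with a median of 12 in WT, and so are a weak check of the labels.

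The 3 members were about the same share of those tested as was found over all genes, and they are given as a description only. The 2 higher members were chains of the same network. Col4a3 measured 2.69 to 3.68 CPM in WT muscle (median 3.19) and 2.80 to 4.39 CPM in muscle labelled KO (median 3.82), a log2 fold change of 0.27 (SE 0.08, unadjusted p = 0.003, adjusted p = 0.490, edgeR). Col4a4 measured 1.23 to 2.13 CPM in WT (median 1.90) and 1.75 to 2.94 CPM in muscle labelled KO (median 2.22), a log2 fold change of 0.34 (SE 0.11, unadjusted p = 0.005, adjusted p = 0.490, edgeR). Both pairs of ranges overlapped. The genes lie head to head on chromosome 1, with annotated starts 72 bases apart on opposite strands, and their products join with that of Col4a5 in a type IV network of certain basement membranes, and Col4a5 gave 0.21 (SE 0.12). The third member was Col7a1, at -0.22 (SE 0.11, adjusted p = 0.572, edgeR), and Col28a1 and Col6a6 followed at 0.33 (SE 0.17) and 0.22 (SE 0.11).

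Muscles 561 and 611, both labelled KO, stood apart from the rest. Collagen genes summed to 1962 and 2122 CPM (here of the library total, without TMM), against 910 to 1392 in the other 9 muscles labelled KO and 787 to 1522 in WT muscle. Their adipocyte markers (Adipoq, Plin1, Lep, Cidec and Retn) summed to 513 and 421 RPKM, against 64.5 to 156 in the other 9 and 45.3 to 227 in WT muscle. Hepatocyte markers summed to 32.6 and 20.3 RPKM there, against at most 7.64 in WT muscle, and endothelial markers to 91.6 and 106 RPKM, against at most 83.9. Markers of activated myofibroblasts summed to 87.5 and 78.5 RPKM, against at most 59.3 in WT muscle, and those of fibro-adipogenic cells to 751 and 780 RPKM, against at most 672. The part of these cells in the collagen levels was not tested.

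Without mice 561 and 611 the median over the collagen genes was -0.03, and Col3a1 moved from 0.21 (SE 0.18) to -0.07 and Col4a1 from 0.16 (SE 0.13) to -0.03. Col4a3 and Col4a4 did not rest on them, at 0.30 and 0.40 without them. No member was called either way. Among WT livers, collagen reads outside Col18a1 were highest in mouse 516 (466 CPM, adipocyte markers 35.4 RPKM) and lowest in mouse 536 (198 CPM, 7.04 RPKM). Adipocyte markers had medians of 27.2 RPKM in WT liver and 9.56 RPKM in KO liver, with Plin1 and Lep at a median of 0 in both, and their part in the liver values was not tested.

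**Figure D3:**
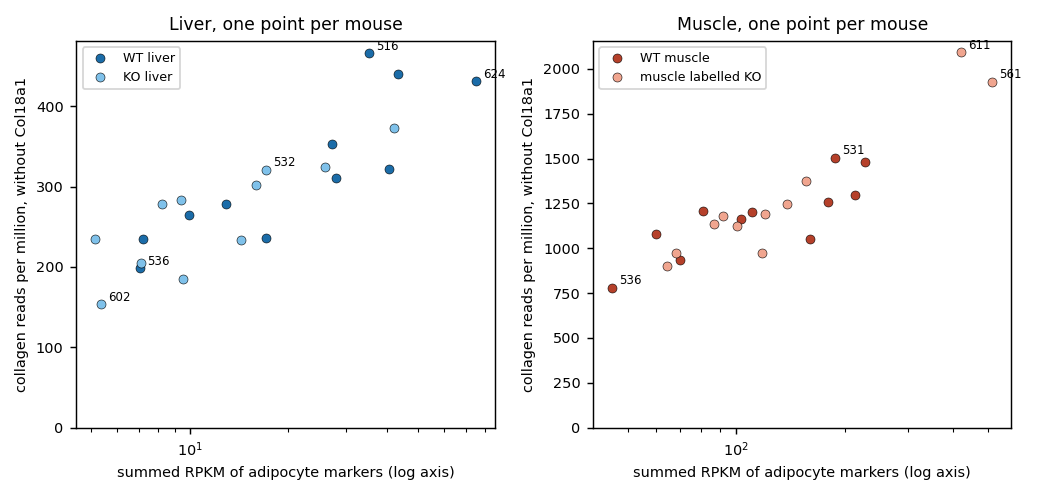
Summed CPM of the collagen genes without Col18a1 against the summed RPKM of 5 adipocyte markers (log axis), in liver (left) and muscle (right), with 1 point per mouse and some mice numbered. Mice 561 and 611 lie at the upper right of the muscle panel, at 1928 and 2092 CPM.

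**Figure D4:**
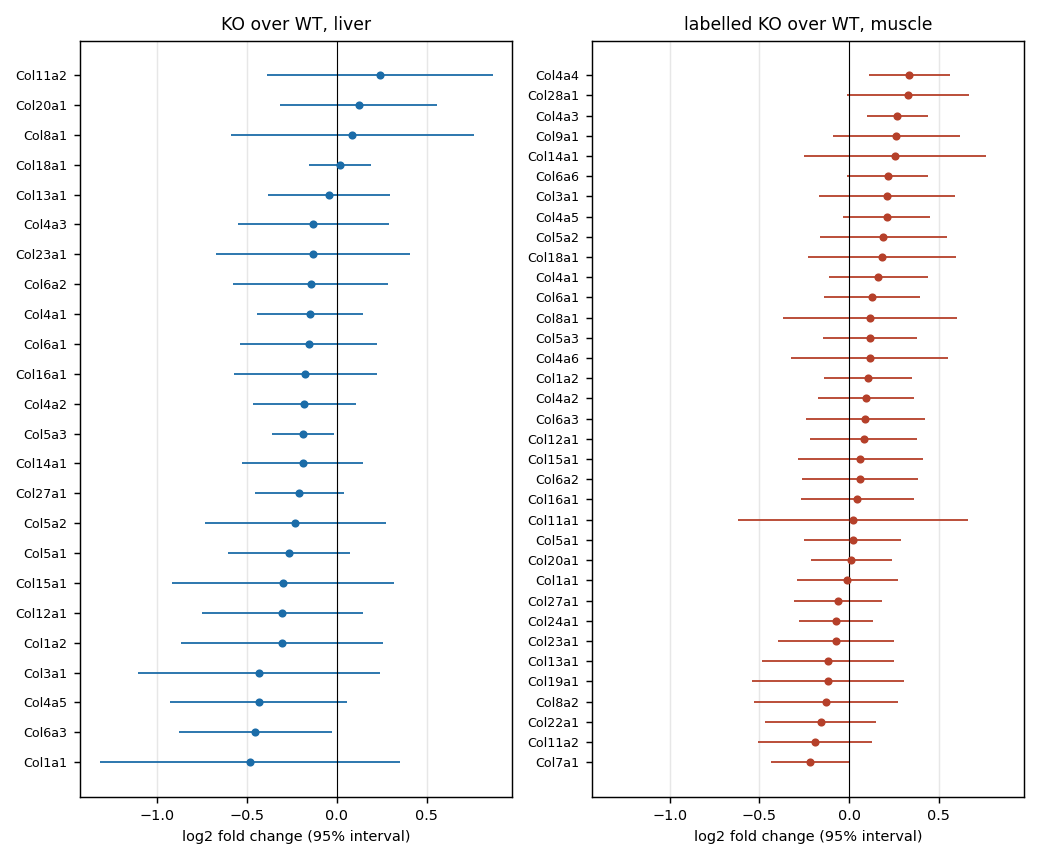
Log2 fold change with its 95% interval for each tested collagen gene, KO over WT in liver (24 genes, left) and muscle labelled KO over WT muscle (35 genes, right). Only Col5a3 and Col6a3 in liver and Col4a3, Col4a4 and Col7a1 in muscle have intervals that leave out 0, and none passed the adjusted threshold.

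The difference between the 2 tissues in the effect of genotype was tested as an interaction for 35 members, and 0 were called in edgeR (0.00678% of all 14739 genes) or in limma-voom. At an unadjusted p under 0.05 there were 3 members, all with a lower effect in liver than in muscle (16.2% of all genes were past that threshold). These were Col6a6 (-0.74, SE 0.26), Col4a5 (-0.64, SE 0.26) and Col6a3 (-0.54, SE 0.27). In a paired fit with the mouse as a replicate block 0 members were called too.

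None of the 65 listed genes for making, processing and binding collagen was called in either tissue, of 52 tested in liver and 58 in muscle. In liver the smallest p was that of Ppib (log2 fold change 0.36, SE 0.13, adjusted p = 0.382, edgeR), followed by Lum, which encodes lumican, a proteoglycan on collagen fibrils (-0.37, SE 0.15). In muscle labelled KO the smallest were those of Timp3 (0.09, SE 0.04) and of Dcn, which encodes decorin, a proteoglycan that binds type I collagen (0.19, SE 0.08). At an unadjusted p under 0.05 there were 2 of the 52 in liver (12.9% of all genes) and 2 of the 58 in muscle (8.64% of all genes).

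Collagens varied more between mice of one group than most genes did. The median coefficient of variation of the tested members was 32.3% in WT liver, against 12.2% over all genes tested, and 22.8% in WT muscle, against 11.3%. The gap was smaller in KO liver, at 32.2% against 24.1%, and in muscle labelled KO the values were 26.8% and 12.05%. Genes were not matched for abundance. In WT liver Col1a1 and Col3a1 spread most, with 69.3% and 57.2%, while Col1a2 was at 48.9%, and Col5a3 and Col18a1 spread least, with 12.3% and 12.5%. In WT muscle Col1a1 varied by 19.9% and Col18a1 by 24.8%. Members low in reads, such as Col8a1 at 54.4% in WT liver, carry more counting error.

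Pairs of related chains were compared across mice, as 8 pairs in up to 4 groups, most of them chains of one collagen type, with Col1a1 and Col3a1 and the multiplexins Col15a1 and Col18a1 as pairs of different types, with log2 CPM in 11 mice each. Of the 30 relations with enough reads, 27 had an adjusted permutation p under 0.05, and 24 of the 27 still had an unadjusted p under 0.05 without the 2 mice farthest from the median of the first chain. Col1a1 and Col1a2, the chains of type I collagen, gave r = 0.98 in WT liver (rho = 0.96, permutation p = 1e-05 for r, the smallest that 100000 resamples can give, adjusted p = 4.3e-05). Without the 2 farthest mice r was 0.97. In KO liver, WT muscle and muscle labelled KO their r was 0.97, 0.94 and 0.97. With the gene length trend removed, 27 of the 30 relations again had an adjusted p under 0.05. Of these, 22 still had an unadjusted p under 0.05 without the 2 farthest mice. In KO liver r was then 0.42 for Col5a1 and Col5a2 (permutation p = 0.258) and 0.44 for Col6a1 and Col6a2 (permutation p = 0.230). Points share the library of each mouse, so any difference in cell makeup between mice moves both genes. Pairs of other genes were not compared in this way, so the share over all gene pairs is not known.

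Col4a1 and Col4a2, which share a start region on chromosome 8 with annotated starts 21 bases apart, gave r = 0.92 in WT liver, 0.95 in KO liver, 0.96 in WT muscle and 0.99 in muscle labelled KO. Col4a3 and Col4a4 had the same head-to-head layout but gave r = 0.28 in WT muscle (rho = 0.21, permutation p = 0.403) and 0.70 in muscle labelled KO (rho = 0.75, permutation p = 0.017, adjusted p = 0.020), which was 0.61 without the 2 farthest mice (permutation p = 0.083). With medians of 1.90 to 3.82 CPM, these chains were measured with fewer reads. The type VI chains Col6a1 and Col6a3 gave r = 0.93 in WT liver, 0.79 in KO liver, 0.97 in WT muscle and 0.97 in muscle labelled KO. For Col6a1 and Col6a2 the values were 0.93, 0.67, 0.97 and 0.97. In KO liver, without the 2 farthest mice, r was 0.61 for both pairs (permutation p = 0.082 with Col6a3 and 0.076 with Col6a2).

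The multiplexins Col15a1 and Col18a1 gave r = 0.96 in WT muscle (rho = 0.93, permutation p = 1e-05, adjusted p = 4.3e-05) and 0.96 in muscle labelled KO. In WT liver r was -0.47 (rho = -0.59, permutation p = 0.140, adjusted p = 0.150), -0.74 without the 2 farthest mice, and in KO liver r was -0.44 (rho = -0.36, permutation p = 0.179). The difference in r between the tissues was not tested.

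**Figure D5:**
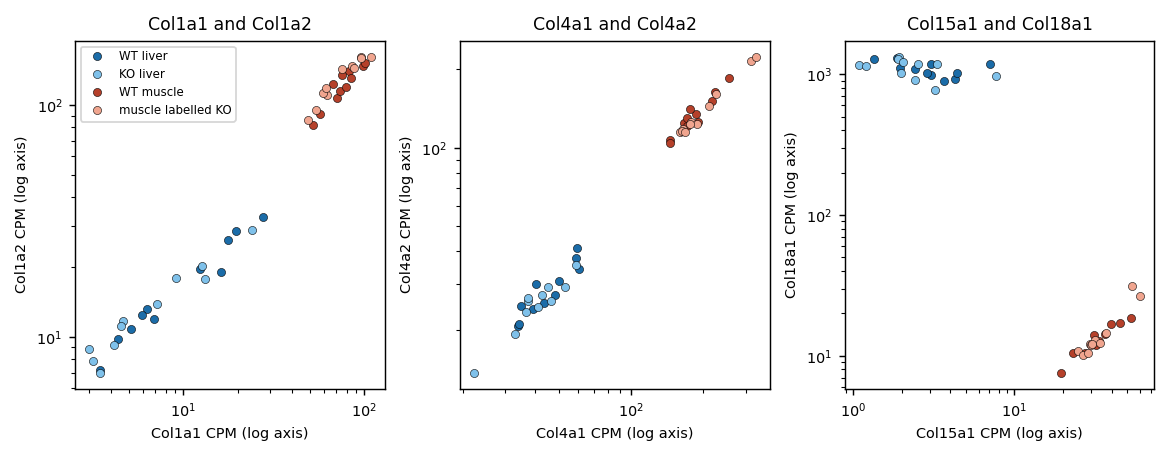
CPM of Col1a1 against Col1a2, Col4a1 against Col4a2 and Col15a1 against Col18a1, on log axes, with 1 point per mouse and a colour for each of the 4 groups. The chains of types I and IV rise together in liver and muscle, and for Col15a1 and Col18a1 the muscle points rise together while the liver points lie far above them in Col18a1.

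Ratios within 15 pairs of chains, 8 in muscle and 7 in liver, were compared between genotypes with 100000 permutations of the mice, and 0 had an adjusted p under 0.05 from RPKM or from counts. The pairs were those used for the correlations. From RPKM 1 ratio had an unadjusted p under 0.05, and from counts, which do not depend on the lengths behind the RPKM values, 3 had.

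From counts the 3 were Col6a1 to Col6a3 in liver, with medians of 1.10 in WT and 1.42 in KO (log2 difference 0.36, SE 0.12, permutation p = 0.006), Col1a1 to Col1a2 in muscle (-0.13, SE 0.05, permutation p = 0.012) and Col4a1 to Col4a2 in muscle (0.07, SE 0.025, permutation p = 0.013). Each had an adjusted p of 0.065. For Col6a1 to Col6a3 in liver, RPKM gave a log2 difference of 0.12 (SE 0.16, permutation p = 0.452). From counts, the KO livers with few reads on long genes (mice 532, 602, 583 and 611) all lay above the KO median. The ratio is not given without these livers or with the gene length trend removed. The part of gene length in its difference was not tested. From RPKM the 1 ratio was Col1a1 to Col1a2 in muscle, with 0.484 to 0.610 in WT (median 0.560) and 0.450 to 0.590 in muscle labelled KO (median 0.508), a log2 difference of -0.12 (SE 0.04, permutation p = 0.018, adjusted p = 0.269). Its ranges overlapped. In liver the same ratio gave a log2 difference of -0.37 (SE 0.18, permutation p = 0.054) from RPKM and -0.22 (SE 0.16, permutation p = 0.172) from counts.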

How the data were processed

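Poly(A) RNA of liver and skeletal muscle was sequenced in strand-specific single-end libraries. The authors deposited read counts per gene and, in a separate table, RPKM values (reads per kilobase of gene, scaled to the reads of the library) for the 44 libraries. Limma is named in the submitters' processing notes, and the aligner, counter and genome build are not given in the sources used here. Groups came from the sample labels, and collagen genes were found by symbol. The members and lists were chosen with earlier results of these data known.

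Counts were filtered with filterByExpr, scaled by TMM and tested with the quasi-likelihood test of edgeR 4.0.16, genotype within a tissue and tissue within a genotype, with Benjamini-Hochberg adjustment at 0.05. Alternatives were DESeq2, limma-voom, library size scaling, other filters, log2 RPKM with pseudocounts of 0.1 and 1, a loess correction for gene length, leaving out mice, and the mouse as a replicate block. Pairing of liver and muscle rests on the animal number: deviations from group means correlated at 0.12 in the same WT mouse and -0.01 between different mice. In mice labelled KO these values were 0.11 and -0.0095. Ratios and correlations of chain pairs with at least 10 mean reads were tested with 100000 permutations of mice.

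Intervals are 95% and cover the spread between mice, or counting error where so stated. Named genes were the main chains, up to 6 called members per direction, the 5 members with the smallest p and the 5 most abundant. On simulated counts with 200 genes changed by a log2 fold change of 1, edgeR recovered 92.5% of them for KO against WT liver and 92.5% for muscle. The changed genes were drawn from all genes tested, and each gene was simulated independently, with no trend on gene length. These figures therefore do not give the recovery for collagen genes, which varied more between mice.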

Additional observations from a re-analysis of the deposited data

How the results depend on the processing

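No collagen gene was called between genotypes in liver or muscle, or in the interaction, under any alternative run. Between tissues, 32 to 39 members were called in WT mice and 35 to 41 in KO mice over all alternatives, the highest counts with no filter. The paired fit with the mouse as a replicate block called 32 and 35 members between tissues, as without it, and changed no other call. The median over members between tissues shrank with RPKM pseudocounts of 0.1 and 1, to -1.87 and -0.65 in WT and -2.08 and -0.69 in KO mice, as pseudocounts compress low genes, and was -2.60 with no filter in KO mice.

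Of 1115 single values recomputed, 46 changed sign, all of them differences between genotypes that were not called. With gene length removed, liver values were 0.0092 for Col5a1, 0.0661 for Col5a2, 0.11 for Col4a1, 0.0666 for Col4a2, 0.0243 for Col6a2, 0.10 for Col5a3 and 0.0141 for Col27a1, and Col5a1 in muscle was -0.0311. Col18a1 in liver was -0.0411 with library size scaling and -0.0686 and -0.0682 with RPKM pseudocounts of 0.1 and 1, and Col1a1 in muscle 0.0148, 0.0037 and 0.0048. Without muscles 561 and 611, chosen after seeing the data like the omission of the 4 livers, muscle values were -0.0701 for Col3a1, -0.14 for Col5a1, -0.0358 for Col5a2, -0.0323 for Col4a1, -0.0916 for Col4a2, -0.0402 for Col6a1, -0.17 for Col6a2, -0.13 for Col6a3, -0.16 for Col15a1 and -0.16 for Col18a1. From counts, the log2 ratios of Col6a1 to Col6a2 in liver and Col4a3 to Col4a4 in muscle were -0.0176 and -0.0758. The causes were not tested.

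Leaving out 1 mouse at a time, muscle values ran from -0.0744 to 0.0425 for Col1a1, -0.0536 to 0.0679 for Col5a1, -0.055 to 0.11 for Col6a2, -0.0249 to 0.15 for Col6a3 and -0.0501 to 0.15 for Col15a1, and Col18a1 in liver from -0.0064 to 0.0699. The medians over members ran from -0.21 to -0.13 in liver and 0.0074 to 0.13 in muscle. Depth limits what liver can show, as 19 of 44 members had a median under 10 reads in WT liver.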
